A study of Bos taurus with 90 samples.

Results

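Mural granulosa cells (MGCs) and cumulus cells (CCs) of the same medium antral follicle were compared, for 8 bovine (Bos taurus) follicles of 6.2 to 7 mm, named M1 to M8. The members were the MGC and CC libraries whose titles share a follicle number, for the medium follicles that passed the study's check of sequencing quality. This gave 16 of the 90 libraries of the series. The series holds MGCs, CCs and the oocyte of 30 follicles in small, medium and large classes. Of the 10 medium follicles, 2 were removed by the study for their mapping rates and mitochondrial read shares, and they entered only an alternative fit. The follicles received no treatment and came from slaughterhouse ovaries of several cows, and which follicles shared a cow is not given in the sources used here. Among the 8, the study classed M5, M6 and M8 as healthy and the other 5 as entering atresia, from marker genes in their MGCs. The study left follicles of the second class out of its main developmental analyses, whereas all 8 were used here.

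MGCs line the wall of the antral follicle. They carry receptors for follicle-stimulating hormone and are the main source of follicular estradiol. CCs surround the oocyte, are joined to it by gap junctions on cell projections that cross the zona pellucida, and respond to growth factors that the oocyte secretes. Both cell types arise from the granulosa cells of the earlier follicle, so a comparison within a follicle asks how far their transcriptomes have diverged by position.

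RNA extracted from MGCs was sequenced in bulk, whereas each CC library was a small pool of tightly attached CCs amplified by SMART-seq2, a low-input protocol for full-length cDNA. All MGC libraries had the first chemistry and all CC libraries the second, so the effects of cell type and of library chemistry cannot be told apart in any difference between MGCs and CCs given here. In pooled samples, fewer cells of a type and less RNA per cell cannot be told apart either. The deposited values are counts per gene, listed by Ensembl identifier, and the files do not pair these identifiers with gene names. Granulosa, cumulus, theca, endothelial and blood cell markers could therefore not be looked up, and the labelled cell types were not checked against them. At most 2 identifiers in each direction are given, and the other genes are described as groups.

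Total counts were 31855644 to 39266980 in MGCs (median 35007890) and 11777136 to 37122994 in CCs (median 32828073). M5 had the lowest CC total, and the next lowest CC library held 26336761 counts. The share of even numbers among low counts, those of 1 to 20, was 60.3% to 66.6% in MGC libraries and 67.5% to 74% in CC libraries. These ranges did not overlap, and their part in the differences below was not tested.

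MGCs and CCs differed in 5355 of the 12470 genes tested, or 42.9%. Of these, 3011 genes (24.1% of those tested) were higher in MGCs and 2344 (18.8%) were higher in CCs. A gene was tested when its CPM, the count scaled to the total of its library, was above 1 in at least 8 of the 16 libraries. It was called at a fold change above 2 and a Benjamini-Hochberg adjusted p under 0.05 in edgeR's quasi-likelihood test, with TMM scaling and the follicle as a block. Fold changes are given as log2 of MGC over CC. Their median over all tested genes was 0.09 with TMM scaling and 0.23 with library totals alone, a difference that shifts every gene toward MGCs, and 3369 genes were then called higher in MGCs and 2014 higher in CCs. Of the 7115 genes not called, 5844 missed the adjusted p and 1271 passed it with a fold change of 2 or less.

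**Figure D1:**
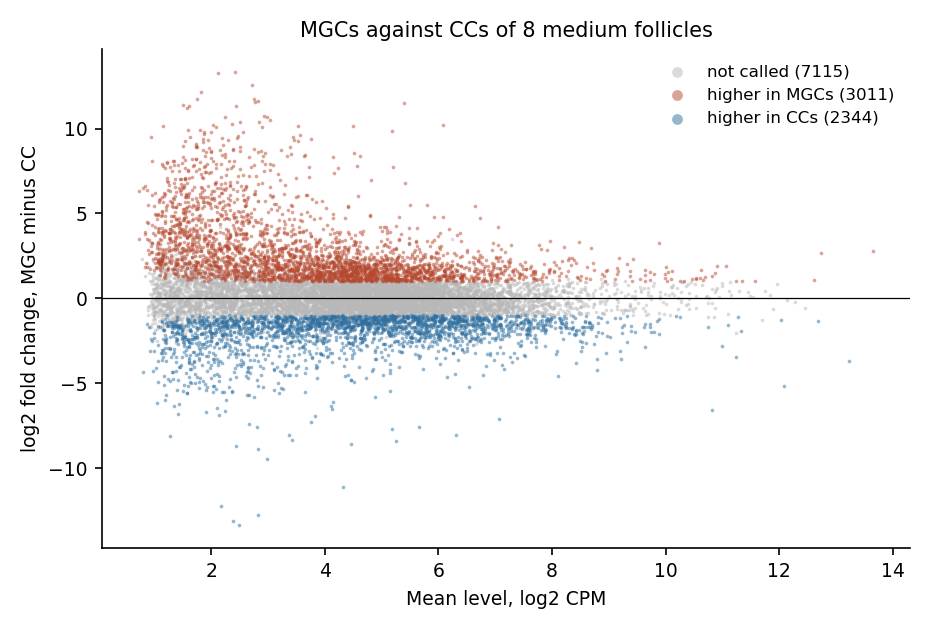
Each point is 1 of the 12470 tested genes, with its mean level in log2 CPM on the horizontal axis and its log2 fold change, MGC minus CC, on the vertical axis. Red points are the 3011 genes called higher in MGCs, blue points the 2344 called higher in CCs, and the widest spread of red points lies at low mean levels.

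The genes higher in MGCs reached larger folds. Their median log2 fold change was 2.04, whereas the genes higher in CCs had a median size of 1.69. Differences of 2 to 4-fold were held by 1467 genes higher in MGCs and 1490 higher in CCs, so the small differences were divided almost evenly. Above 64-fold, 249 genes were higher in MGCs and 33 higher in CCs. The genes on each side were chosen by this same contrast, so these sizes are a description.

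**Figure D2:**
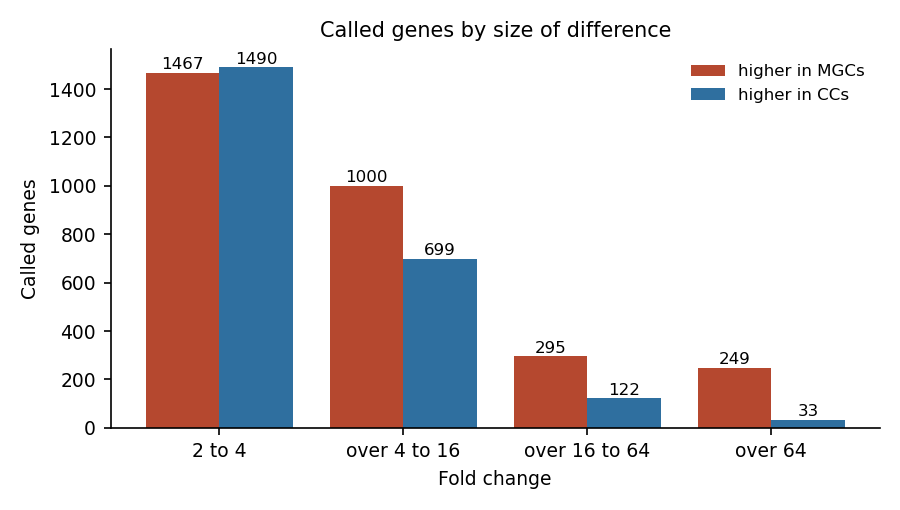
Bars give the number of called genes in each range of fold change, red for genes higher in MGCs and blue for genes higher in CCs. The 2 bars are of similar height at 2 to 4-fold, 1467 and 1490 genes, and part with size, to 249 and 33 genes above 64-fold.

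The balance of the directions changed with the level of the gene. Tested genes were ranked by mean level and cut into 5 bins of 2494 genes. In the lowest bin, 51.6% were called, 848 higher in MGCs and 439 higher in CCs. In the highest bin, 39.3% were called, 368 higher in MGCs and 612 higher in CCs. Among tested genes, only the highest bin thus held more genes higher in CCs. Every other bin held more genes higher in MGCs, by 444 against 421 in the bin next to the highest. A gene of low mean level can pass the filter through 1 cell type alone and is then likely to be called in that direction. Libraries held 12171 to 13136 genes above 1 CPM in MGCs and 11223 to 12482 in CCs. How far the filter shaped the balance in the lowest bin was not tested. Of the genes higher in MGCs, 693 (23%) had no count in at least 1 CC library, whereas 86 (3.67%) of the genes higher in CCs had no count in at least 1 MGC library. The same shares over all tested genes are not given here. The part of the library totals, lowest in the CCs of M5, was not tested.

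The direction was shared by most follicles. Of the genes higher in MGCs, 2309 (76.7%) had a higher CPM in the MGCs of all 8 follicles. Of the genes higher in CCs, 1522 (64.9%) had a higher CPM in the CCs of all 8. The genes were called from these same follicles, so agreement in direction is in part fixed by the choice, and the shares are a description. CPM rests on library totals without TMM scaling, which shifts genes toward MGCs. The 8 MGC values and the 8 CC values did not overlap for 2329 tested genes, or 18.7%. Non-overlap held for 1410 genes (46.8%) of those higher in MGCs, for 800 (34.1%) of those higher in CCs and for 119 (1.67%) of those not called.

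Few genes were restricted to one of the cell types at a CPM of 1. In all, 9241 genes were above 1 CPM in all 16 libraries. A further 225 genes were above 1 CPM in all 8 MGC libraries and at or below it in all 8 CC libraries, and 67 genes showed the opposite pattern. Of the 225, 9 had no count in any CC library, and the highest of these had a mean of 39.1 CPM in MGCs, at least 3164-fold higher than the floor of 3 counts over the CC libraries together. Of the 67, 2 had no count in any MGC library, and the highest of them had a mean of 37.1 CPM in CCs, at least 3480-fold higher than the same floor over the MGC libraries. Intervals and floors of this kind cover counting error only, because reads without molecular identifiers are not independent molecules.

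The called genes made up a large share of each library. Genes higher in MGCs took 26.3% to 39.7% of the counts in MGC libraries (median 37.2%) and 6.52% to 13.3% in CC libraries (median 9.24%). Genes higher in CCs took 36.4% to 46% of the counts in CC libraries (median 41%) and 8% to 17.7% in MGC libraries (median 9.88%). The genes were chosen by this same contrast, so a larger share in their own cell type is fixed by the choice. Of the 100 genes with the highest mean CPM in MGCs and the 100 highest in CCs, 55 were shared. Among the 100 of MGCs, 38 were called higher in MGCs and 7 higher in CCs, and among the 100 of CCs, 41 were called higher in CCs and 7 higher in MGCs.

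The identifiers given here are the 2 with the largest fold change in each direction among called genes that averaged 3 or more in log2 CPM and whose MGC and CC values did not overlap, a rule that 865 genes higher in MGCs and 584 higher in CCs met. Adjusted p-values in the accounts of these genes are from edgeR's quasi-likelihood test. Since this same contrast chose the genes, their size, p-values and lack of overlap are a description.

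ENSBTAG00000021466 had the largest difference toward MGCs. Its level in MGCs ranged from 328 CPM in M6 to 2994 CPM in M2, with a median of 1336 CPM. In CCs it ranged from 0 counts in M8 to 2.69 CPM in M3, where 95 counts were found, with a median of 0.34 CPM. All 8 MGC libraries lay far above all CC libraries, and the lowest MGC values were those of M6, M5 and M8. Mean levels were 1408 ± 859 CPM in MGCs and 0.65 ± 0.89 CPM in CCs (SD, n = 8), and the log2 fold change was 11.51 (SE 0.83, adjusted p = 2.96e-06). It had no count in any of the 8 oocytes, which were prepared with the same chemistry as CCs.

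ENSBTAG00000027020 was the second gene higher in MGCs. Its MGC level ranged from 16.2 CPM in M6 to 146 CPM in M3, with a median of 56.1 CPM. In CCs, 5 of the 8 libraries had no count, and the highest value was 0.54 CPM in M3. Mean levels were 77.8 ± 53.2 and 0.085 ± 0.186 CPM (SD, n = 8), and the log2 fold change was 10.48 (SE 0.70, adjusted p = 2.42e-06). M6 and M5 were again the lowest MGC libraries, and M3 again the highest CC library. In oocytes it had counts in M6 alone, at 0.21 CPM.

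ENSBTAG00000055172 had the largest difference toward CCs. In CCs it ranged from 68.5 CPM in M7 to 855 CPM in M5, with a median of 386 CPM. In MGCs it ranged from 0 counts in M2 to 0.57 CPM in M7, with a median of 0.21 CPM. Mean levels were 0.22 ± 0.17 CPM in MGCs and 401 ± 238 CPM in CCs (SD, n = 8), and the log2 fold change was -11.07 (SE 0.76, adjusted p = 2.49e-06). The CCs of M7 were the lowest of the 8, and M7 also had the highest MGC value. Oocytes of these follicles held 2.12 to 19.8 CPM, between the levels of MGCs and CCs.

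ENSBTAG00000049916 was the second gene higher in CCs. Its CC level ranged from 52.4 CPM in M7 to 697 CPM in M1, with a median of 248 CPM. In MGCs it ranged from 0.21 CPM in M2 to 2.45 CPM in M7, with a median of 0.78 CPM. The order of follicles resembled that of the previous gene at the low end, with M7 lowest in CCs and highest in MGCs. Mean levels were 0.99 ± 0.75 and 350 ± 260 CPM (SD, n = 8), and the log2 fold change was -8.57 (SE 0.81, adjusted p = 1.4e-05). Oocytes held 8.42 to 69.1 CPM, above all MGC libraries, and the oocytes of M7 and M5, at 69.1 and 57.5 CPM, lay above the lowest CC library.

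**Figure D3:**
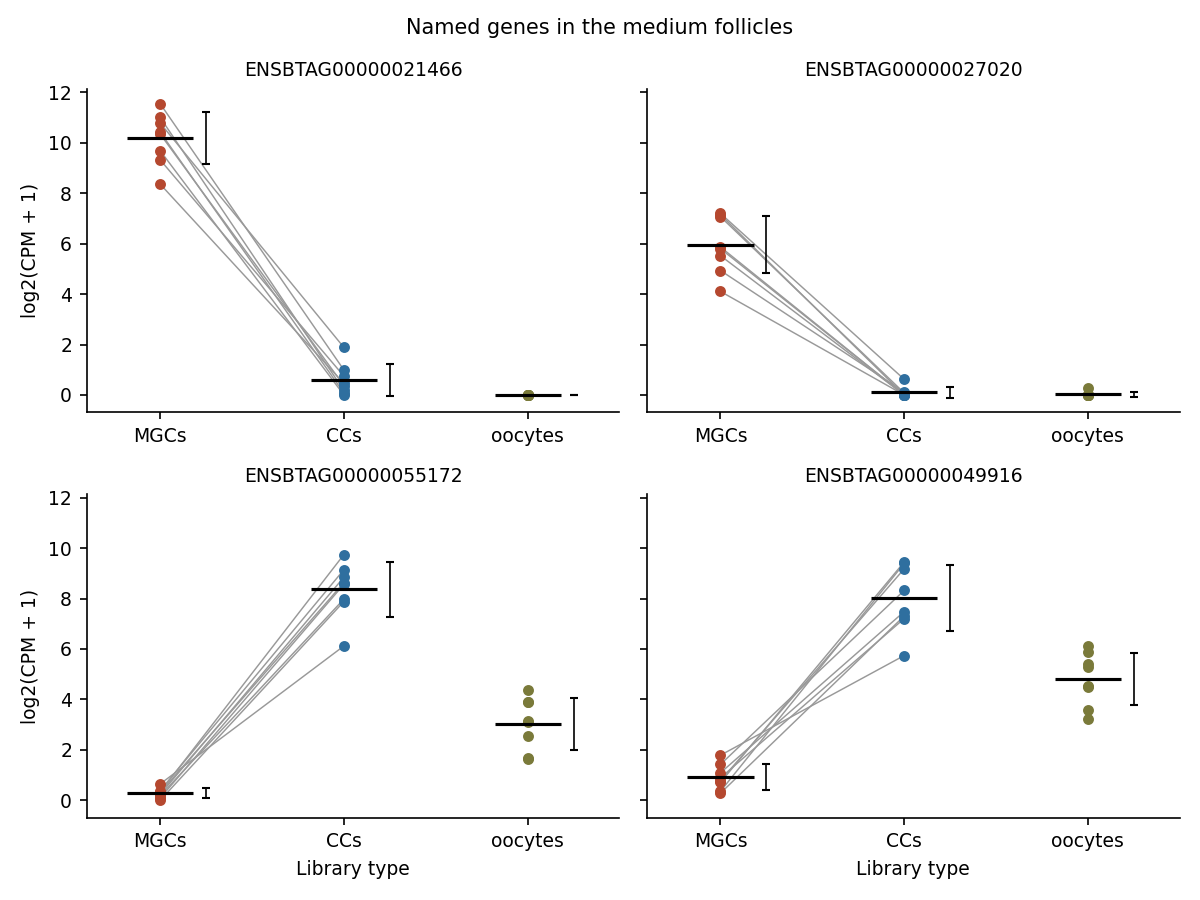
Each panel shows 1 gene, with a point for each of the 8 follicles in MGCs (red), CCs (blue) and oocytes (olive) on a log2(CPM + 1) scale. Thick lines are means, bars beside them 1 SD, and grey lines join the MGCs and CCs of a follicle. The groups do not overlap in any panel between MGCs and CCs, which was a condition of the choice of these genes. The oocytes of the lower panels lie above the MGCs.

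The size of the difference varied among follicles. On log2(CPM + 1), the genes more than 2-fold higher in MGCs numbered 2275 in M8, 2980 in M5 and 3205 in M6, and from 3287 in M3 to 5053 in M1 in the other 5. On this scale, the 3 lowest numbers were those of the follicles that the study classed as healthy, although M6 and M3 lay close. CPM carries no TMM scaling, and the shift toward MGCs that this leaves was not equal among follicles. The TMM factors of MGCs and CCs were furthest apart in M1, 1.0993 and 0.808548, and nearest in M8, 1.00378 and 0.993727. Whether the order of follicles holds with TMM scaling was not tested. The genes more than 2-fold higher in CCs ranged from 1929 in M6 to 3391 in M7, and here the ranges of the healthy follicles and the others overlapped. These classes were drawn from gene levels in the same MGC libraries, so no test was made between them. With only M5, M6 and M8 in the fit, 2598 genes were called, 1243 higher in MGCs and 1355 higher in CCs.

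M5 differed from the rest. The correlation over tested genes of the within-follicle difference with the mean difference of the other 7 follicles was 0.57 in M5 and 0.78 to 0.89 in the others. Of the genes called higher in MGCs, 85.4% were higher in the MGCs of M5 and 93.2% to 99.4% in those of the other follicles. M5 was also the follicle with the shallowest CC library. Its CCs had a median Spearman's rho of 0.81 with the other CC libraries, whereas this was 0.88 to 0.92 for the other 7. Without M5, 5822 genes were called.

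**Figure D4:**
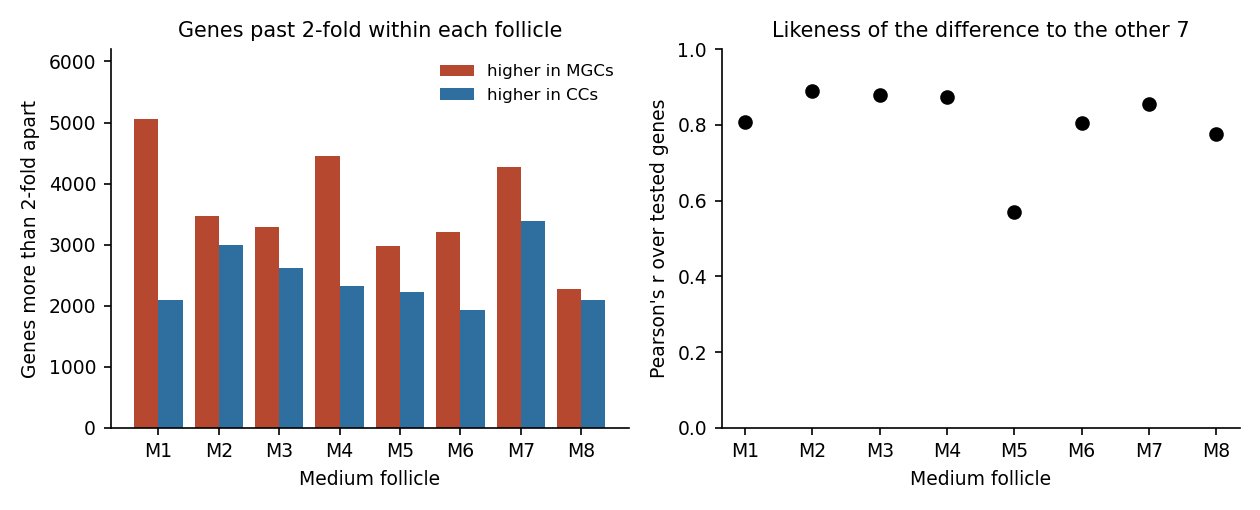
The bars give, for each medium follicle, the number of tested genes more than 2-fold higher in MGCs (red) or in CCs (blue) on log2(CPM + 1). The points give Pearson's r over tested genes between the MGC minus CC difference of a follicle and the mean difference of the other 7, which was 0.57 in M5 and at least 0.78 in the rest.

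Libraries of a cell type resembled each other more, by the median, than libraries of different types, but the ranges overlapped. Spearman's rho over tested genes had a median of 0.86 between MGC libraries (28 pairs, range 0.78 to 0.97) and 0.90 between CC libraries (28 pairs, range 0.78 to 0.95). Between MGCs and CCs it had a median of 0.68 within a follicle (8 pairs, range 0.59 to 0.82) and 0.68 across follicles (56 pairs, range 0.52 to 0.84). The MGCs of M6 had a rho of 0.82 with their own CCs and a median of 0.81 with the other MGC libraries. The MGCs of M6, M8 and M5 were nearest to CCs, with median rho of 0.79, 0.78 and 0.76 with the 8 CC libraries. The MGCs of M1 followed at 0.71, and those of M2, M3, M4 and M7 lay at 0.60 to 0.63. These values are across genes, which are not independent replicates.

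Once the mean of each cell type was taken away, MGCs and CCs of a follicle deviated together to a small degree. The correlation of their deviations over tested genes had a mean of 0.16 over the 8 follicles and ranged from -0.15 in M7 to 0.38 in M6. Set against all 40320 ways to pair the 8 MGC with the 8 CC libraries, this mean had p = 0.0164 (exact one-sided permutation test, adjusted p = 0.0491 over 3 tests). Without M6 the mean was 0.13 and the exact permutation p was 0.056, and without any other single follicle it was 0.00179 to 0.0427. In 3 of the 8 follicles, M3, M4 and M6, the MGCs correlated best with their own CCs.

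The spread of single genes between follicles was wider in CCs, whereas the rank order of genes, given above as Spearman's rho, was more alike among CC libraries. The SD of log2(CPM + 1) over the 8 follicles had a median of 0.46 in MGCs and 0.66 in CCs over all tested genes, and it was larger in CCs for 69.4% of them. Among the 3520 genes with a mean log2(CPM + 1) over 5 in both cell types, the medians were 0.39 and 0.57, and the SD was larger in CCs for 70.2%. No test was made, since genes are not replicates, and the part of the small CC pools and of their chemistry was not tested.

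The number of genes detected did not differ beyond the spread of the follicles at 1 count. MGC libraries held 17128 ± 339 genes and CC libraries 16599 ± 1195 (SD, n = 8), and MGCs were higher in 5 of 8 follicles (mean difference 529, exact two-sided sign-flip permutation test, p = 0.172, adjusted p = 0.242, where the smallest possible p is 0.00781). The mean difference was 348 genes without M1 and 264 with all 10 medium follicles (exact permutation p = 0.328 and 0.471). With every library thinned to 11777136 counts, a check added after the data were seen, the mean difference was 459 genes (exact permutation p = 0.219). At a limit of 10 counts, MGCs held more genes in all 8 follicles, by a mean of 948 (exact permutation p = 0.00781). Libraries were not thinned for this limit, and totals differed within follicles, as in M5 with 35466261 counts in MGCs and 11777136 in CCs. The part of depth in the 10-count result was not tested. The 100 most abundant genes of each library took 32.3 ± 2.84% of the counts in MGCs and 33.7 ± 3.17% in CCs, and MGCs were higher in 4 of 8 follicles (exact permutation p = 0.242, adjusted p = 0.242, n = 8). The mean difference, MGC minus CC, was -1.46 percentage points, and it was -0.75 without M1 and -0.96 without M4. The 10 most abundant genes, a number chosen after the data were seen, took 11.5 ± 2.48% of the counts in MGCs and 15.1 ± 2.51% in CCs (SD, n = 8), and CCs were higher in all 8 follicles (exact two-sided sign-flip permutation test, p = 0.00781).

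CCs were stripped from around the oocyte, so oocyte RNA was followed through genes that are high in oocytes. The list held the 176 identifiers with a mean of at least 100 CPM in oocytes and under 1 CPM in MGCs of the small and large follicles, and no medium library was used to choose it. Since the list requires low levels in MGCs and sets no limit in CCs, a lower sum in MGCs is in part fixed by the choice, and no comparison of MGCs with CCs is drawn from it. Its summed level was 27.8 to 45.4 CPM in MGCs (median 37.2), 129 to 348 CPM in CCs (median 164) and 95572 to 118733 CPM in the oocytes of the same follicles (median 110137). CCs held 0.112% to 0.324% of the sum of their own oocyte. M8 was highest in CCs at 348 CPM, followed by M5 at 223 CPM. Only 12 of the 176 identifiers passed the filter on low values, of which 11 were called higher in CCs and none higher in MGCs. Since these passed through their CC values, the count gives no support for a direction. The 11 made up 0.469% of the 2344 genes called higher in CCs. That share is limited by the list, of which only 12 identifiers were tested, and sets no bound on oocyte RNA among the 2344.

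The oocytes give the levels of the called genes in another cell type prepared by SMART-seq2. The genes higher in MGCs had a median level of 7.93 CPM in the 8 oocytes, the genes higher in CCs 23.2 CPM and the genes not called 25.9 CPM. Of the genes higher in MGCs, 2290 (76.1%) had a mean above 1 CPM in oocytes, and 642 (21.3%) had a higher mean in oocytes than in MGCs. Of the genes higher in CCs, 2032 (86.7%) had a mean above 1 CPM in oocytes, and 833 (35.5%) had a higher mean in oocytes than in CCs. Of the genes not called, 89% had a mean above 1 CPM in oocytes. The share with a higher mean in oocytes than in MGCs or CCs is not given for them, so the 21.3% and 35.5% have no background here. Of the 225 genes above 1 CPM in all MGC and in no CC library, 85 had a mean above 1 CPM in oocytes and 51 had no count in any of the 8. Among the 67 genes with the opposite pattern, 45 had a mean above 1 CPM in oocytes and 3 had no count in any.

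Small follicles (3.1 to 3.8 mm) and large follicles (9.6 to 11.6 mm) gave the same comparison in other follicles. The fit over 8 small follicles called 24.7% of 12319 genes higher in MGCs and 18% higher in CCs, and that over 10 large follicles called 25.9% of 12227 genes higher in MGCs and 22.1% higher in CCs. Small follicle S7 was left out, since its CC column holds counts for few genes. Of the genes higher in MGCs in medium follicles, 2262 of 2739 tested (82.6%) were called higher in MGCs in small follicles and 2313 of 2746 (84.2%) in large follicles. Of the genes higher in CCs, 1609 of 2288 (70.3%) were called higher in CCs in small and 1870 of 2275 (82.2%) in large follicles. These shared genes were 74.5% and 72.9% of the genes higher in MGCs of small and large follicles, and 72.5% and 69.2% of those higher in CCs. No gene called in medium follicles was called in the opposite direction in either class. Of the genes tested in all 3 classes, 1906 of 2644 (72.1%) higher in MGCs and 1414 of 2251 (62.8%) higher in CCs were called the same way in each. The same library chemistries were used in every class.

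**Figure D5:**
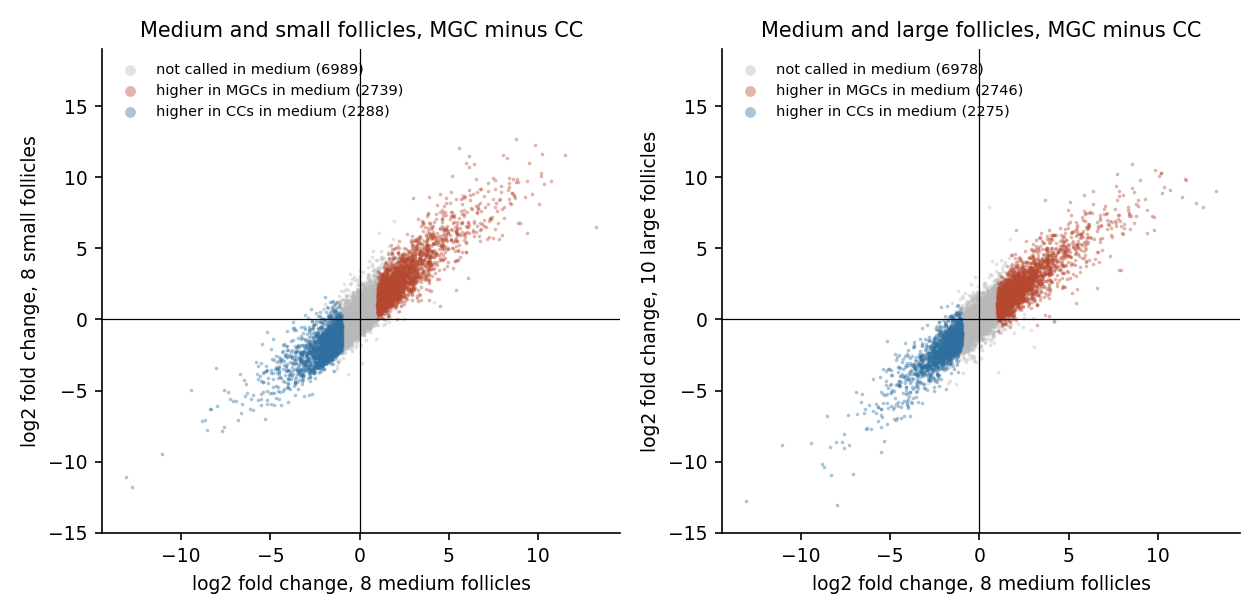
Each point is a gene tested in both fits, with its log2 fold change, MGC minus CC, in medium follicles on the horizontal axis and in small or large follicles on the vertical axis. Colours give the call in medium follicles. Of the red points, 82.6% were called higher in MGCs in small and 84.2% in large follicles, and of the blue points 70.3% and 82.2% were called higher in CCs.

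The difference between MGCs and CCs itself was then compared between classes, as the interaction of cell type and class over 26 follicles. In edgeR, 2 of 12169 genes (0.0164%) differed between medium and small follicles and 0 (0%) between medium and large follicles. At an unadjusted p under 0.05 and a fold above 2, these numbers were 793 and 617, and DESeq2 called 132 and 44 genes, each out of 12169. Between medium and small follicles, 671 of the 793 and 122 of the 132 had a negative interaction, a lower MGC minus CC difference in medium follicles. Between medium and large follicles, 311 of the 617 and 12 of the 44 were negative. The median interaction over all genes was -0.12 for medium minus small follicles and -0.03 for medium minus large follicles.

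The first of the 2 genes, described after its values were seen and without its identifier, was higher in CCs in every class. Its MGC level was 11.6 ± 9.24 CPM in small, 0.43 ± 0.40 CPM in medium and 0.68 ± 1.21 CPM in large follicles, and its CC level was 81.4 ± 57.2, 91.8 ± 53.9 and 131 ± 69.7 CPM (SD, n = 8, 8 and 10). The interaction was -4.67 on the log2 scale (SE 0.78, edgeR adjusted p = 0.0209), and without M8 its adjusted p was 0.0695 (0.0165 to 0.0427 without any other medium follicle). The second gene had low levels, 3.17 ± 2.81 CPM in MGCs and 0.17 ± 0.17 CPM in CCs of small follicles against 0.85 ± 0.51 and 1.32 ± 1.24 CPM in medium follicles (SD, n = 8), and was not among the genes tested in medium follicles alone. Its interaction was -4.64 (SE 0.83, edgeR adjusted p = 0.0287), and its adjusted p was 0.0743 without M3, 0.0742 without M4, 0.0903 without M5 and 0.0878 without M8, and 0.0165 to 0.0454 without any other.

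Of the 4 genes with an identifier, 3 passed the filters over small and large follicles. ENSBTAG00000021466 had a log2 fold change of 11.57 (SE 1.19) in small and 9.87 (SE 1.39) in large follicles, with MGC levels of 12.1 to 4102 CPM and 3.03 to 2470 CPM. ENSBTAG00000055172 had log2 fold changes of -9.49 (SE 1.04) and -8.81 (SE 0.55), and ENSBTAG00000049916 of -7.79 (SE 1.01) and -6.76 (SE 0.74). All 6 passed the adjusted p of edgeR, and the largest was 0.000196. The CC level of ENSBTAG00000055172 had a median of 386 CPM in medium, 94.9 CPM in small and 80.1 CPM in large follicles, and its interaction was -1.65 (SE 1.08) for medium minus small and -2.30 (SE 0.99) for medium minus large follicles (edgeR adjusted p = 0.661 and 0.587). ENSBTAG00000027020, which was not tested there, had medians of 79.6 CPM in MGCs of small and 69.2 CPM in MGCs of large follicles, and at most 0.38 CPM in any of their CC libraries.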

How the data were processed

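RNA-seq was made from MGCs, CC pools and oocytes of single bovine follicles. The deposited values are raw counts per gene without normalization, as the authors counted them over exons with featureCounts from uniquely mapped reads on ARS-UCD1.2. The methods name STAR as aligner, whereas the submitters' processing notes name HISAT2 2.2.1, and this conflict stays unresolved. Libraries were grouped by their labels and paired by follicle number, and all columns map to a sample. The members, lists and tests were chosen with earlier results of these data known. Gene lists, marker checks and sequences were not run, for lack of a table that links the identifiers to names. CPM was computed from column totals. Differences were fitted with edgeR 4.0.16 in R 4.3.3 (TMM, glmQLFit, glmQLFTest, CPM above 1 in at least 8 libraries, follicle block), and genes were called at a fold above 2 and adjusted p under 0.05. The alternatives used DESeq2 1.42.0 and limma 3.58.1. Fits were tested on simulated data. Permutation tests used numpy 2.4.6 with seed 1. The named genes are the 2 with the largest fold in each direction among called genes that averaged 3 or more in log2 CPM without overlap. The pairing is the design's, and same-follicle deviations correlated with a mean r of 0.16 (5 of 8 pairs over 0.1). P-values of the fits and of the sign-flip tests measure the spread between follicles. That of the pairing test sets the same-follicle pairs against all ways to pair the libraries. Some follicles may share a cow.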

Additional observations from a re-analysis of the deposited data

Results flagged for a closer look

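Among 19 sets of 8 values, 6 held a follicle far from the others. The measure was the gap between it and its nearest neighbour relative to the range. For independent sets, chance gives this in about 1 of 20. That rate need not hold here, since several sets share a library and some hold low CPM values, so chance is not excluded. M5 accounted for 3 of the 6. Its MGC library gave 38.4% of its counts to the 100 most abundant genes, where the next highest library gave 32.7%. Its CC library had 11777136 counts, where the next lowest had 26336761. The correlation of its MGC minus CC difference with the mean of the other follicles was 0.57, where the next lowest follicle had 0.78.

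The summed level of the oocyte-high genes was 348 CPM in the CCs of M8, where the next highest CC library had 223 CPM. In the CCs of M3, ENSBTAG00000021466 reached 2.69 CPM, where the next highest CC library had 0.99 CPM, and ENSBTAG00000027020 reached 0.54 CPM, where the next highest had 0.085 CPM. These are the 2 genes with the largest differences toward MGCs, and both remained at a small share of their MGC level in M3, 1759 and 146 CPM.

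The MGC minus CC difference of 2 genes differed between medium and small follicles, with interactions of -4.67 and -4.64 on the log2 scale (edgeR's quasi-likelihood test, adjusted p = 0.0209 and 0.0287).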

How the results depend on the processing

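The number of genes called between MGCs and CCs was 5355. It was 2398 at a fold above 4 and 2598 with the 3 healthy follicles alone, where fewer samples entered, and 4860 (without M7) to 5822 (without M5) when 1 follicle was left out. It stayed within 1.5 times under every other alternative run (5188 to 6737 genes, the last without a filter on low counts and with more genes tested). Without the follicle block that pairs the libraries, 5188 genes were called. The 4 named genes kept their direction and passed the adjusted p in all 18 alternatives each. They were chosen for large differences without overlap in these same libraries, so this was in part fixed by the choice.

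Between medium and small follicles, 2 genes were called as reported, 793 at an unadjusted p, 1 with library totals alone, 132 with DESeq2, 1 with the study's limits on CPM, 4 without the block, and 0 (without M8) to 3 when 1 medium follicle was left out, with 1 without each of M3, M4 and M5. Between medium and large follicles, the 0 reported became 617 at an unadjusted p, 44 with DESeq2 and 1 without the block, and stayed 0 in every fit that left out a follicle. The cause was not tested. The mean same-follicle correlation was 0.13 (without M6) to 0.21 when a follicle was left out. At 10 counts, without thinning, the difference in genes detected was 948 and passed its test. At 1 count it was 529, and 348 (without M1) to 736 when a follicle was left out. The difference in the share of the 100 most abundant genes was -1.46, and -1.94 (without M7) to -0.75 (without M1) when a follicle was left out. For the 10 most abundant genes it was -3.60 and passed its test. The log2 difference of the oocyte-high sum, MGC minus CC, whose sign is in part fixed by the choice of the list, was -2.26, and -1.73 with a limit of 500 CPM in oocytes (49 identifiers). Depth limits the low values in CCs most in M5.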
